A study of Mus musculus with 2 samples.

Results

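The genes described here make, sense and move cholesterol and fatty acids in mouse peritoneal macrophages, the phagocytes of the abdominal cavity. They comprise 38 listed genes, taken wherever the array annotation ties a probe set to that gene alone. Of these, 37 were found, on 77 probe sets, out of 18194 genes named on the array. Acat2, a thiolase that starts sterol synthesis, was not analysed here. RNA was measured with 1 Affymetrix array per group. The elicited array held RNA of macrophages from C57BL/6J mice aged 8 weeks that had received 1 mL of 3% thioglycollate into the peritoneum, after 3 days of response. Thioglycollate medium is a sterile irritant that draws monocytes into the cavity. The resident array held RNA of macrophages from untreated C57BL/6J mice of the same age. Cells of both groups were purified by adherence alone, for 2 h according to the sample protocols and overnight according to the series text. The number of mice behind each array is not stated in the labels. There was no replicate, so no value below has an error between animals or cultures, no test between the groups was possible, and the number of arrays limits the precision.

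Macrophages take up lipoproteins and dead cells and so receive more cholesterol than they can break down. When sterols are scarce, the SREBP transcription factors, escorted by Scap and held back by the Insig proteins, leave the endoplasmic reticulum and switch on the enzymes of sterol and fatty acid synthesis. When sterols are plentiful, oxysterols and sterol intermediates activate the LXR nuclear receptors, which induce the cholesterol exporters Abca1 and Abcg1, the apolipoproteins and the lipogenic factor Srebf1. Fatty acid synthesis in other tissues is also driven by the carbohydrate response factor ChREBP, encoded by Mlxipl.

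Values are deposited signal intensities on a linear scale with arbitrary units, and ratios are elicited over resident on the log2 scale. A signal was treated as background below a floor of 82.9, set from gene families thought silent in macrophages, and a ratio against background is a bound. Where a gene had several probe sets, the one with the highest mean signal stands for it. A gene is counted as higher or lower when its ratio was at least 2-fold. Over 11459 genes above the floor on 1 or both arrays, 8.03% were counted as higher and 11.8% as lower on the elicited array, with a median log2 ratio of -0.03. These shares depended on the scaling. They were 14.2% higher and 7.39% lower with equal medians, 11.1% and 7.99% with quantile normalization, 9.75% and 8.85% with the loess trend removed, and 5.05% higher and 18.4% lower when scaled on spiked controls. The median of all genes was then 0.24, 0.16, 0.09 and -0.30 in the same order. The SD of the log2 ratio between probe sets of a gene was 0.48 over 4455 genes, which measures probe behaviour and not variation between animals.

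Markers of other cells also differed between the arrays, and in bulk RNA fewer cells of a type and less RNA per cell cannot be told apart. Counts are of the markers above the floor on 1 or both arrays, whereas summed signals cover every marker with a probe set. All 8 pan-macrophage markers were above the floor on both arrays, with a summed signal of 137236 on the elicited and 141135 on the resident array, although 1 of them, Fcgr1, was higher and 2, Itgam and Cd14, were lower (median log2 ratio -0.51). Markers of large resident macrophages were lower in 5 of 6 (summed signal 5103 on the elicited and 74533 on the resident array). B cell markers were lower in 5 of 7 (4699 on the elicited and 15439 on the resident array), with Cd79a and Ebf1 below the floor on the elicited array. The other 2, Cd22 and Pax5, had ratios above equality, 1.80-fold and 1.13-fold higher. Cd22, with 4078 on the elicited and 2269 on the resident array, made up most of the elicited sum. Mesothelial and fibroblast markers were higher in 9 of 12 (16702 on the elicited and 766 on the resident array), with Msln below the floor on both. Mast cell markers (129 on the elicited and 2047 on the resident array) and dendritic cell markers (240 on the elicited and 1223 on the resident array) were lower in 3 of 3 and 2 of 2. T cell markers were lower in 2 of 3 (90.4 on the elicited and 639 on the resident array). No mast cell, dendritic cell or T cell marker was above the floor on the elicited array, so their elicited sums are background. Of 6 neutrophil markers, S100a8 alone was above the floor, on both arrays. The part of these cells in the ratios of the lipid genes was not tested.

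Of the 37 measured genes, 36 were above the floor on both arrays and Elovl6 on the elicited array alone. Counted at 2-fold, 9 of 37 were lower (24.3%), 1 was higher (2.70%) and 27 lay within the threshold, with a median log2 ratio of -0.29. The same shares over all genes were 11.8% lower and 8.03% higher. Efflux and lipoprotein genes were lower in 4 of 6 and higher in 1 of 6 (median -1.50), fatty acid synthesis enzymes were lower in 3 of 7 (median -0.75), and sterol synthesis enzymes were lower in 1 of 17 (median 0.03). The median of the fatty acid enzymes minus that of the sterol enzymes was -0.78 on the log2 scale, a difference that a common scaling of the arrays leaves as it is. The median of the efflux and lipoprotein genes minus that of the sterol enzymes was -1.54. With so few genes in each group these medians are descriptions of the genes listed.

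**Figure D1:**
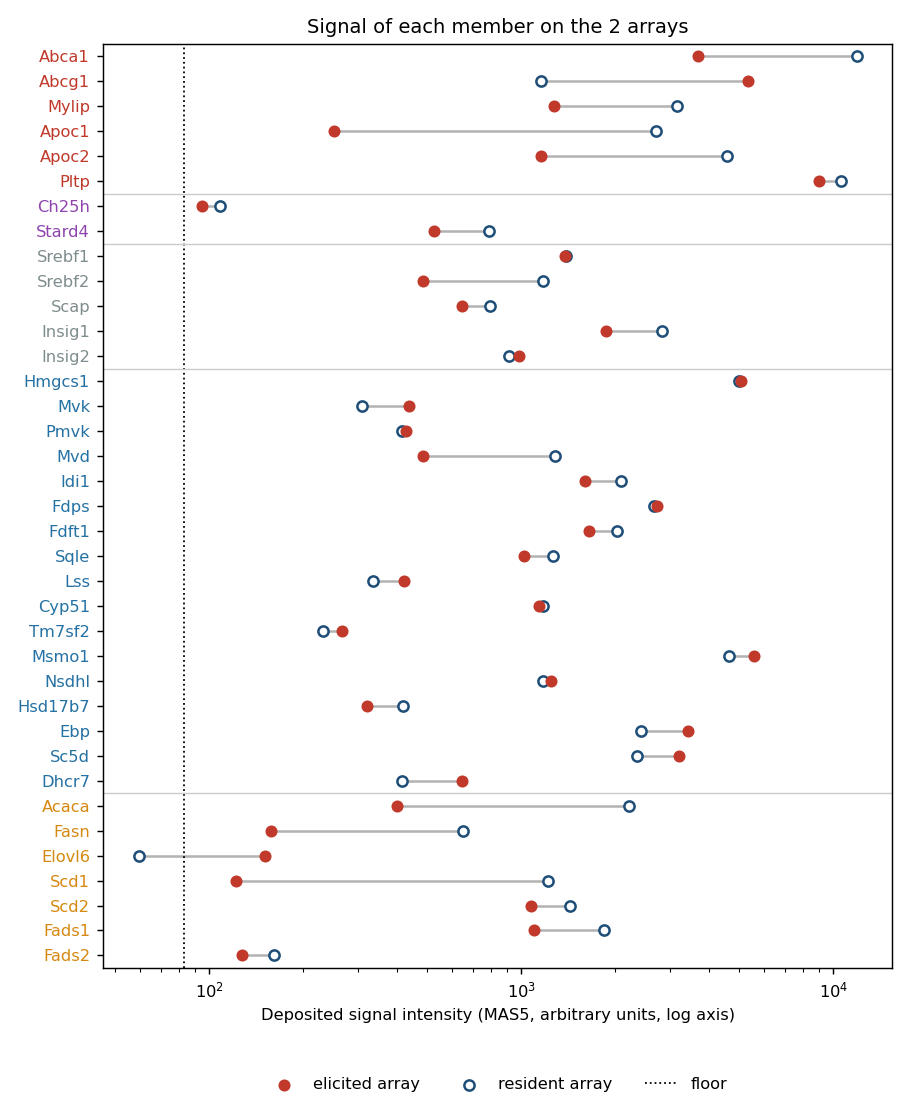
Signal of each of the 37 measured genes on the elicited (filled red) and resident (open blue) arrays, on a log axis in arbitrary units, grouped by role in the colours of the gene names; the dotted line is the floor of 82.9. The pairs of most sterol enzymes, from Hmgcs1 to Dhcr7, lie close together, whereas Apoc1, Acaca, Fasn and Scd1 are far lower and Abcg1 far higher on the elicited array.

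Promoter sequences are shown for the 4 genes whose start region held a literal match to the letters of a sterol-response or LXR element, the elements through which SREBP and LXR act. Windows searched run from 250 bases before to 50 bases after a start site in the RefSeq annotation of GRCm38.p6 and were found for 29 of the 38 listed genes. The sterol element was searched as TCACNCCAC and the LXR element as a direct repeat of NGGTNA with 4 bases between the copies, both on either strand. The stretches printed are the 250 bases before the start site. That of Abca1 spans chr4:53159896-53160145, minus strand, that of Fasn chr11:120824548-120824797, minus strand, and that of Srebf1, which is 1 of 3 windows of this gene, chr11:60210472-60210721, minus strand. The stretch of Hmgcs1 spans chr13:119690101-119690350, plus strand. Each is written in the direction of its gene, with the match in capitals. The LXR repeats lie on the opposite strand, so that their capitals show the reverse complement.
Abca1: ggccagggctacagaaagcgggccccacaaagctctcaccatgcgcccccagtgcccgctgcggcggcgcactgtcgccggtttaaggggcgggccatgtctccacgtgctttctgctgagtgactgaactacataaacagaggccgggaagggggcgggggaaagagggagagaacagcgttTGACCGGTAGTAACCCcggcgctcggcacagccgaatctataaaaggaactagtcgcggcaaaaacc
Fasn: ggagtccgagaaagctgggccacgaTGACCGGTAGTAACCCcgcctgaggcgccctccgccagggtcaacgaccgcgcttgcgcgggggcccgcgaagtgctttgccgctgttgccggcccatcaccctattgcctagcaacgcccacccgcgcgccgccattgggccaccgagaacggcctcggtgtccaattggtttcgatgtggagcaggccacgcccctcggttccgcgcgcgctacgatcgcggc
Srebf1: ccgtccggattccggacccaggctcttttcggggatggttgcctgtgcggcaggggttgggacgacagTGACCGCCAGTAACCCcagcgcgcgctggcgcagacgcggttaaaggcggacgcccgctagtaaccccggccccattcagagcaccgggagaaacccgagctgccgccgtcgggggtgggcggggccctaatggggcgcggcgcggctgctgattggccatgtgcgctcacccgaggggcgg
Hmgcs1: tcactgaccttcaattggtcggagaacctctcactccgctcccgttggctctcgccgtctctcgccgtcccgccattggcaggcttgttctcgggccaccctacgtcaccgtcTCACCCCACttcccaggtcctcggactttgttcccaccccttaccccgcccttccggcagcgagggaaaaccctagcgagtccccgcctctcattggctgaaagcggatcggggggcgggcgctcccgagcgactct

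The capitals of Abca1 and Fasn were identical over all 16 letters, and those of Srebf1 differed from them at 2 positions. They begin 67 bases upstream of the start site in Abca1, 225 in Fasn and 182 in Srebf1. Such a repeat was present in 0.818% of the 27025 genes with a window and in 3 of 29 listed genes. The sterol element of Hmgcs1 began 137 bases upstream and was the only match in the 29 listed genes with a window, against 1.44% of all genes. Elements spelled otherwise, and listed genes without a window, were not searched. The letters CCAAT, part of the box bound by NF-Y, a factor that acts together with SREBP at many promoters, were present on either strand in 14 of 15 sterol enzymes, 4 of 5 regulators, 2 of 4 efflux and lipoprotein genes and 1 of 4 fatty acid enzymes, against 41.1% of all genes. Genes with several windows have more places for a match. Counted by window, CCAAT was in 14 of 18 windows of sterol enzymes and 5 of 10 of regulators, against 37.4% of all windows. The efflux and lipoprotein genes and the fatty acid enzymes had as many windows as genes. All of these are matches of letters and carry no measurement of binding. The genes with an LXR repeat did not share a direction or size of ratio. Abca1 and Fasn were lower on the elicited array, and Srebf1 was nearly equal on both. The repeat of Srebf1 lies in 1 of its 3 windows, and its single probe set is not tied here to any of them. The ratio of Srebf1 therefore cannot be assigned to the start site with the repeat.

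Among the genes of cholesterol export, the 2 ABC transporters went in opposite directions. Abca1, which loads cholesterol and phospholipid onto lipid-poor apolipoprotein A-I, had a signal of 3687 on the elicited and 11871 on the resident array, 3.22-fold lower (log2 ratio -1.69). Its other probe sets had signals of 158 on the elicited and 1618 on the resident array, and of 118 on the elicited and 706 on the resident array. All 3 probe sets of Abca1 thus pointed down, with log2 ratios from -3.36 to -1.69. Abcg1, which passes cholesterol on to mature high-density lipoprotein, had a signal of 5320 on the elicited and 1156 on the resident array, 4.60-fold higher (log2 ratio 2.20). Its second probe set, with 510 on the elicited and 157 on the resident array, was also higher (log2 ratio 1.70). Abcg1 was the only one of the 37 genes counted as higher. Both transporters kept their direction and stayed past 2-fold under all 10 alternative settings, from -2.54 to -1.38 for Abca1 and from 1.90 to 2.51 for Abcg1.

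The apolipoproteins of this group were lower. Apoc1, a small apolipoprotein of triglyceride-rich particles, had a signal of 251 on the elicited and 2711 on the resident array, 10.8-fold lower, the lowest ratio of all 37 genes. Apoc2, the activator of lipoprotein lipase, had 1158 on the elicited and 4568 on the resident array, 3.95-fold lower. Mylip, the LXR-induced ubiquitin ligase that sends lipoprotein receptors to degradation, had 1269 on the elicited and 3162 on the resident array, 2.49-fold lower. Each of these 3 genes was read by 1 probe set. Pltp, which transfers phospholipid between lipoproteins, was within the threshold at 8983 on the elicited and 10578 on the resident array, and its 2 probe sets fell on either side of equality (log2 ratios -0.24 and 0.28). The group thus held large differences in both directions beside a gene with almost none.

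Genes of oxysterol synthesis and sterol transport differed less. Stard4, a soluble sterol carrier, had a signal of 525 on the elicited and 787 on the resident array, 1.50-fold lower, with all 3 probe sets between -0.88 and -0.54. Ch25h, which makes the oxysterol 25-hydroxycholesterol, was close to the floor on both arrays, with 94.9 on the elicited and 108 on the resident array. It was below the stricter floor of 175 on both, and its log2 ratio of -0.19 was 0.33 with quantile normalization.

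The sensors and transcription factors were mostly within 2-fold. Srebf2, the main SREBP of sterol synthesis, had a signal of 483 on the elicited and 1172 on the resident array, 2.43-fold lower (log2 ratio -1.28). Its second probe set had 528 on the elicited and 867 on the resident array (log2 ratio -0.72), which is under 2-fold, and with equal medians the gene itself had a log2 ratio of -0.97. Srebf1, which drives fatty acid synthesis, had 1379 on the elicited and 1388 on the resident array. Its single probe set is not tied here to either of its transcript forms.

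Scap, the escort protein, had a signal of 645 on the elicited and 793 on the resident array (log2 ratio -0.30). Insig1, a retention protein and itself a target of SREBP, had 1865 on the elicited and 2823 on the resident array, 1.51-fold lower. Insig2, its paralogue, had 987 on the elicited and 912 on the resident array, with log2 ratios from 0.11 to 0.36 over 3 probe sets. Of these 5 regulators only Srebf2 passed 2-fold as deposited.

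The enzymes of sterol synthesis had nearly the same signal on both arrays. Of 17 measured, 16 were within 2-fold, 11 of 17 had a ratio above equality and 6 below, and apart from Mvd their log2 ratios ran from -0.39 (Idi1) to 0.63 (Dhcr7). Hmgcs1, which condenses acetyl-CoA and acetoacetyl-CoA to HMG-CoA, had a signal of 5063 on the elicited and 4973 on the resident array, with log2 ratios from -0.58 to 0.24 over 5 probe sets. Sqle, the oxygen-dependent squalene epoxidase that is a slow step of the pathway, had 1017 on the elicited and 1268 on the resident array (log2 ratio -0.32). Cyp51, the lanosterol demethylase, had 1137 on the elicited and 1170 on the resident array (log2 ratio -0.04). Which side of equality the small ratios fell on depended on the scaling and on the probe sets used. The median of the group was -0.26 on the spiked controls and -0.06 with the mean of the probe sets of each gene. Counted as lower was 1 of 17 (5.88%) and none was higher, beside 11.8% lower and 8.03% higher of all genes. With 17 genes these counts are too small to set the group apart from all genes.

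The exception was Mvd, the decarboxylase that makes isopentenyl diphosphate, with a signal of 483 on the elicited and 1282 on the resident array, 2.66-fold lower. Its second probe set had 395 on the elicited and 830 on the resident array (log2 ratio -1.07), and the gene stayed past 2-fold in all 10 alternatives. The enzymes on either side of it did not share this ratio. Pmvk, the kinase before it, had 426 on the elicited and 416 on the resident array, and Idi1, the isomerase after it, had 1600 on the elicited and 2095 on the resident array. Mvk, the first mevalonate kinase, was 1.41-fold higher (436 on the elicited and 310 on the resident array).

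Of the other enzymes up to squalene, Fdps, which makes farnesyl diphosphate, had a signal of 2733 on the elicited and 2668 on the resident array, and Fdft1, squalene synthase, was 1.23-fold lower. The 7 enzymes up to squalene had a median log2 ratio of 0.03 and the 10 after it 0.23. The gap between these medians is smaller than the probe-set SD of 0.48. The median of the second stretch also depends on which probe set stands for a gene, as given below for Lss and Sc5d. In the second stretch the highest ratios belonged to Dhcr7, the last reductase of the Kandutsch-Russell route (645 on the elicited and 416 on the resident array, 1.55-fold higher), Ebp, a sterol isomerase (1.41-fold higher), and Sc5d, a sterol desaturase (1.36-fold higher). Msmo1 and Nsdhl, which remove the methyl groups at carbon C-4, had log2 ratios of 0.26 and 0.08. Tm7sf2, a sterol reductase, had 0.21 and Hsd17b7, a keto-reductase of the same demethylation, -0.38.

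Probe sets disagreed for some sterol enzymes. The value of 0.33 for Lss, lanosterol synthase, came from a probe set with 420 on the elicited and 335 on the resident array, while another read 120 on the elicited and 335 on the resident array (log2 ratio -1.48). With the mean of its 3 probe sets the log2 ratio of Lss was -0.50. The 3 probe sets of Sc5d ran from -0.62 to 0.44, with a mean of -0.06. Of the 19 listed genes read by several usable probe sets, 15 had a single direction across them, among them all 6 counted as higher or lower.

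**Figure D2:**
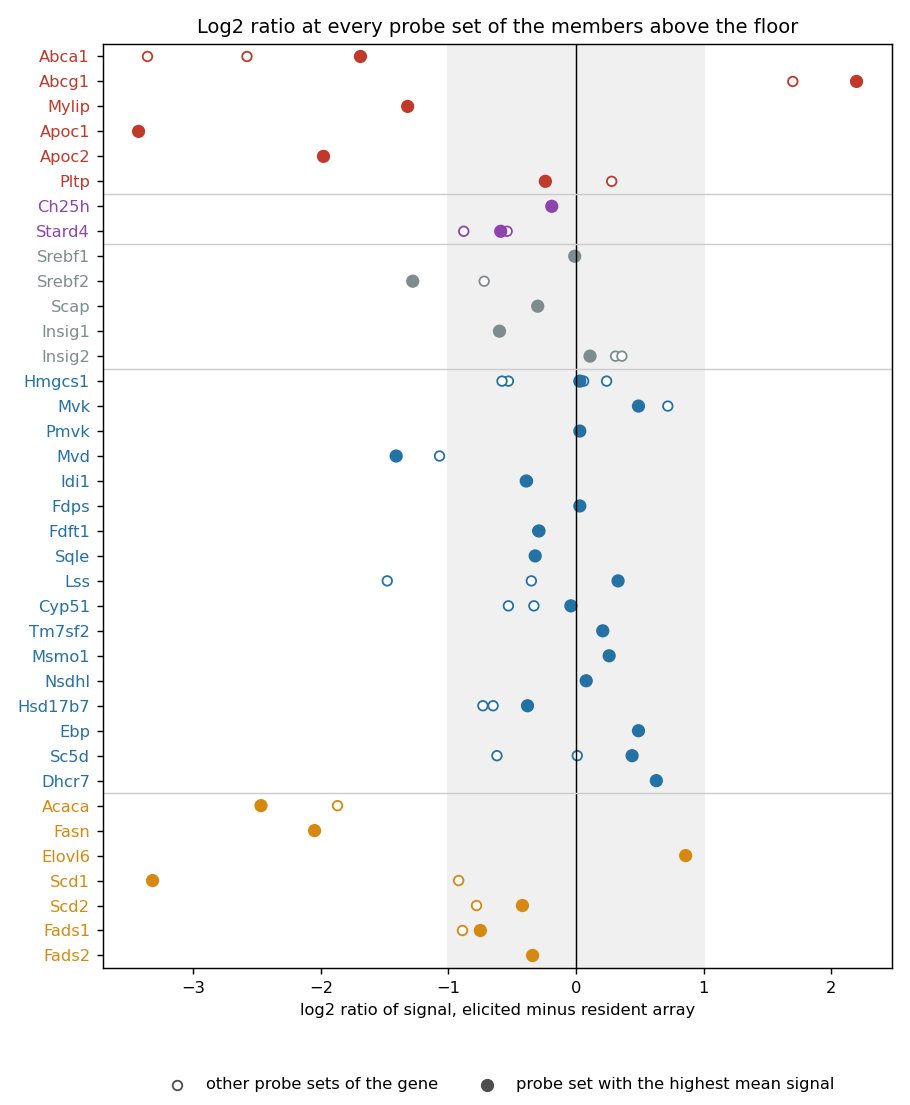
Log2 ratio of signal, elicited minus resident array, at every probe set of the listed genes that was above the floor on 1 or both arrays; filled points mark the probe set that stands for the gene, open points its other probe sets, and the grey band is the region under 2-fold. All probe sets of Abca1 and Mvd lie left of the band and those of Abcg1 right of it, while Lss and Sc5d have points on both sides of 0.

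Of the 7 fatty acid synthesis enzymes, Acaca, Fasn and Scd1 were lower. Acaca, acetyl-CoA carboxylase, which commits carbon to fatty acids, had a signal of 400 on the elicited and 2220 on the resident array, 5.55-fold lower. Its second probe set was below the floor on the elicited array, with 36.6 on the elicited and 302 on the resident array. Fasn, the synthase that assembles palmitate, had 158 on the elicited and 652 on the resident array, 4.14-fold lower. Scd1, the stearoyl-CoA desaturase that makes monounsaturated fatty acids, had 122 on the elicited and 1220 on the resident array, 10.0-fold lower, and its dimmer second probe set gave a bound of -0.92. On the elicited array Fasn and Scd1 were above the floor of 82.9 and below the stricter floor of 175. All 3 genes stayed past 2-fold in the 10 alternatives. The size for Scd1 depended on the setting, with a log2 ratio of -3.32 as deposited, -2.12 with the mean of its probe sets, -2.67 with the floor added as a pseudocount and a bound of -2.80 with the stricter floor.

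The other desaturases were within 2-fold. Scd2, the stearoyl-CoA desaturase paralogue of Scd1, had a signal of 1072 on the elicited and 1435 on the resident array (log2 ratio -0.42). Fads1, the desaturase of polyunsaturated fatty acids that forms arachidonic acid, had 1100 on the elicited and 1848 on the resident array, 1.68-fold lower, with log2 ratios of -0.89 and -0.75 at its 2 probe sets. Fads2, which acts before it, was dim, with 127 on the elicited and 161 on the resident array. Elovl6, which extends palmitate to stearate, was the one enzyme of the group with a higher signal, at 151 on the elicited array and 59.4, below the floor, on the resident array, a bound of at least 1.82-fold that passed 2-fold in 3 of 9 alternatives. That signal is also under the stricter floor. With the stricter floor, which Elovl6 and Fads2 do not reach on either array, the median of the fatty acid enzymes was -1.90. That is the value of Fasn, a bound because its elicited signal lies under the stricter floor. Fat and liver also express these enzymes. Of 5 adipocyte markers 0 were above the floor of 82.9 on the elicited and 1, Retn, on the resident array (34.8 on the elicited and 147 on the resident array), and Adipoq had 26.5 on the elicited and 31.8 on the resident array. Of 3 hepatocyte markers 0 were above the same floor on either array. Whether cells of fat or liver had a part in the ratios of these enzymes was not tested.

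**Figure D3:**
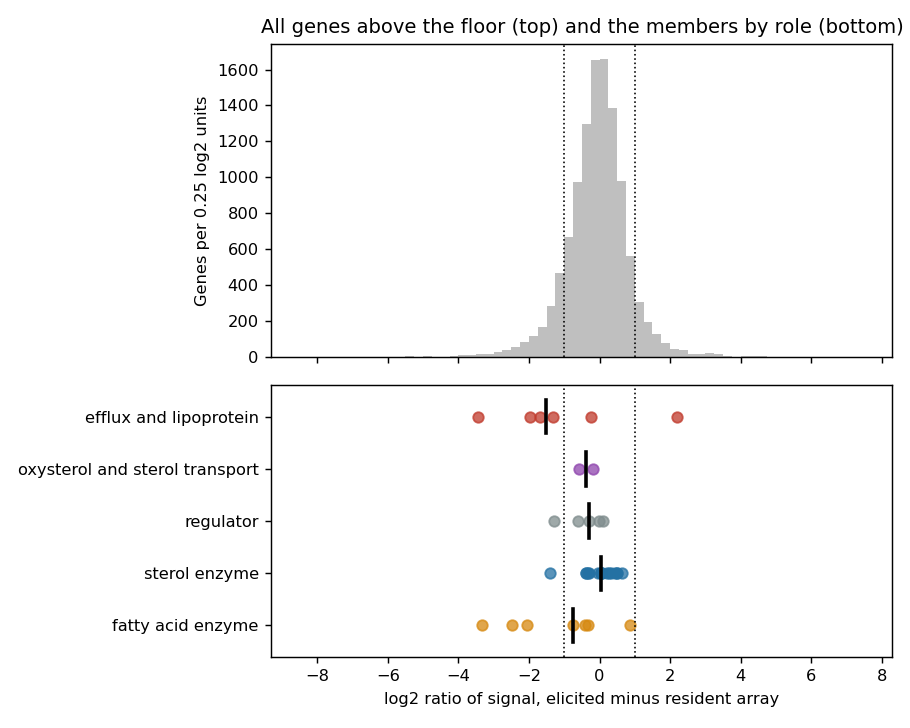
Top, number of genes by log2 ratio, elicited minus resident array, for all 11459 genes above the floor; bottom, the ratio of each measured listed gene by role, with a black bar at the median of the role and dotted lines at 2-fold. The sterol enzymes lie within the bulk of all genes except for Mvd at -1.41, whereas 3 fatty acid enzymes and 4 efflux and lipoprotein genes lie below the lower line.

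A further 32 genes of the same pathways were examined beside these. Of them, 7 were not analysed here, and for 2, Idi2 and Acacb, both arrays stayed under the floor. Of the remaining 23, 4 were higher and 5 lower at 2-fold, with a median log2 ratio of -0.29, against 8.03% and 11.8% of all genes. The 5 lower genes included Mlxipl and the suppliers of cytosolic acetyl-CoA, Acly and Acss2. Mlxipl, which encodes ChREBP, was under the floor with 37.9 on the elicited array, against 1122 on the resident one, at least 13.5-fold lower. This bound is a log2 ratio of -3.76 and follows from the floor; with the stricter floor of 175 it was -2.68, and with no floor and a pseudocount of 1 the log2 ratio was -4.85. Acly, which makes cytosolic acetyl-CoA from citrate, had 4543 on the elicited and 12254 on the resident array, 2.70-fold lower, with its 3 probe sets from -2.28 to -1.15. Acss2, which makes acetyl-CoA from acetate, was 3.07-fold lower, and Me1, a source of NADPH, had 191 on the elicited and 339 on the resident array (log2 ratio -0.83).

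Elongation of long fatty acids did not follow this. Hsd17b12, the keto-reductase of the elongation cycle, was 2.23-fold higher as deposited (8077 on the elicited and 3619 on the resident array). It was past 2-fold in 6 of 10 alternatives, with a lowest log2 ratio of 0.86. The second probe set of Hsd17b12 had a log2 ratio of 0.69, which is under 2-fold. Elovl1, an elongase of very long chains, had a log2 ratio of 0.90, with its 4 probe sets from 0.27 to 1.06. Elovl5 and the reductase Tecr had -0.43 and -0.03. Genes that release cholesterol from stored or ingested esters were higher. Nceh1, a cholesteryl ester hydrolase, had 8420 on the elicited and 2900 on the resident array, 2.90-fold higher, and its 3 probe sets ran from 1.54 to 2.18. Lipa, lysosomal acid lipase, had 22204 on the elicited and 9483 on the resident array, 2.34-fold higher, with log2 ratios of 0.86 with quantile normalization, 0.83 with the loess trend removed and 0.93 on the spiked controls. Npc2, which hands cholesterol on inside the lysosome, had a log2 ratio of 0.69. It was 0.38 with quantile normalization and 0.22 with the loess trend removed.

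Nr1h3, which encodes LXR alpha, was 2.04-fold higher (535 on the elicited and 262 on the resident array), although its log2 ratio was 0.73 on the spiked controls. Apoe, the apolipoprotein that macrophages secrete, had 40723 on the elicited and 38450 on the resident array. Abca7, a transporter related to Abca1, was 2.47-fold lower and Ggps1, which makes geranylgeranyl diphosphate from the sterol route, 2.34-fold lower, each past 2-fold in 7 of 10 alternatives. Mbtps1 and Mbtps2, the proteases that release SREBP, were within 2-fold at log2 ratios of -0.69 and 0.00. The 3 probe sets of Mbtps1 disagreed in direction, from -0.84 to 0.40. Osbp, an oxysterol-binding protein, was at -0.66, Lpcat3, an LXR-induced remodeller of membrane phospholipids, at -0.58, and Scarb1, a receptor for high-density lipoprotein, at -0.31. Cyp27a1, a mitochondrial sterol hydroxylase, was at -0.29, and Aacs, which activates acetoacetate, at -0.17. Thrsp, a lipogenic protein, read 15.7 in the elicited sample, which is background, against 88.9 on the resident array. The resident signal is itself close to background, under the floor of 93.3 set from the resident array alone. The log2 ratio of Thrsp, -0.10, is a bound that does not place it within 2-fold. With no floor and a pseudocount of 1 it was -2.43, a ratio of 2 signals near or under background.

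**Figure D4:**
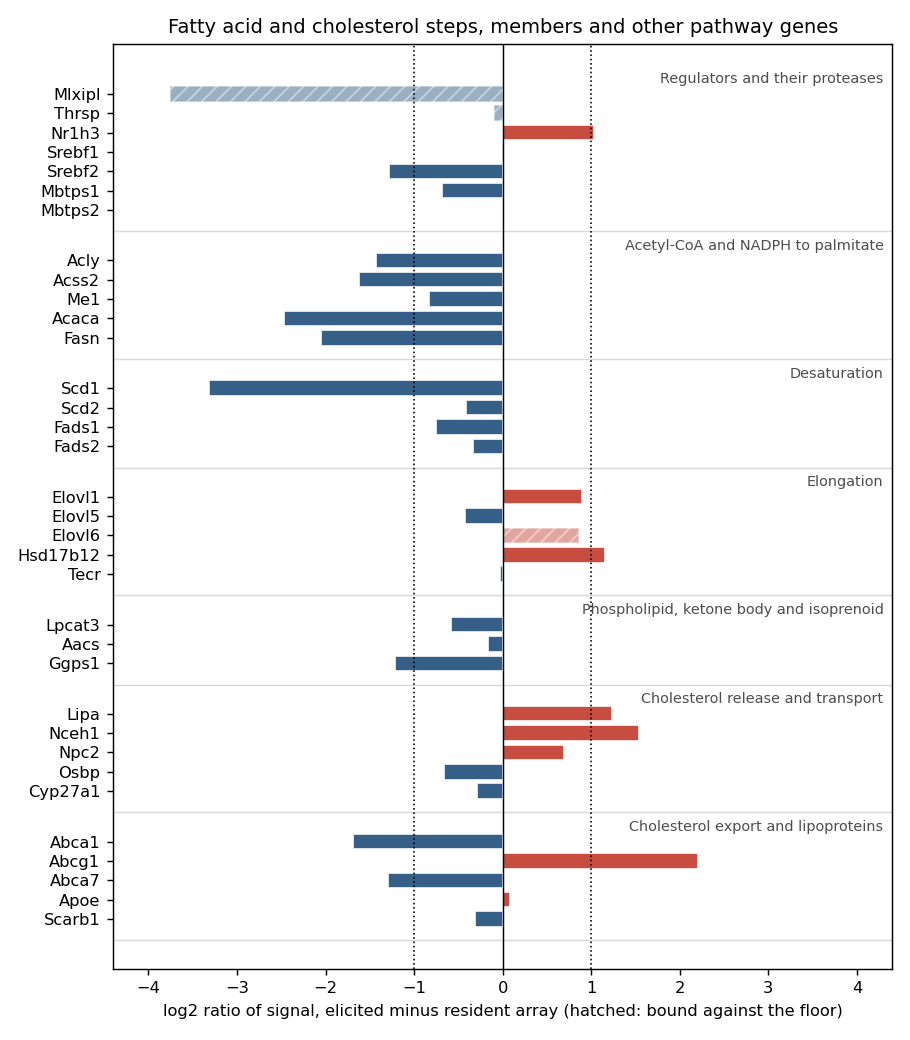
Log2 ratio of signal, elicited minus resident array, for listed genes and all 23 measured other pathway genes outside the sterol enzymes, arranged by step; hatched bars are bounds against the floor and dotted lines mark 2-fold. Mlxipl and the steps from acetyl-CoA to palmitate all point left, Lipa, Nceh1 and Npc2 point right, and Abca1 and Abcg1 point in opposite directions.

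The median ratio of all genes differed with brightness, at -0.24 in decile 3 of mean signal and 0.41 in decile 10, and the 9 spiked hybridisation controls were 1.23-fold higher on the elicited array. The median of the sterol enzymes ranged from -0.26 on the spiked controls to 0.34 with equal medians, beside -0.30 and 0.24 for all genes. The median of the fatty acid enzymes minus that of the sterol enzymes was -1.93 with the stricter floor, where it is a bound. It was from -0.78 to -0.74 in the other 9 alternatives. The median of the efflux and lipoprotein genes minus that of the sterol enzymes ran from -1.76 to -1.50 in all 10. Equal medians, spiked controls and leaving out the filter could not change either difference, so those settings say nothing on its stability. The floor from the resident array alone also left both differences as deposited.

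**Figure D5:**
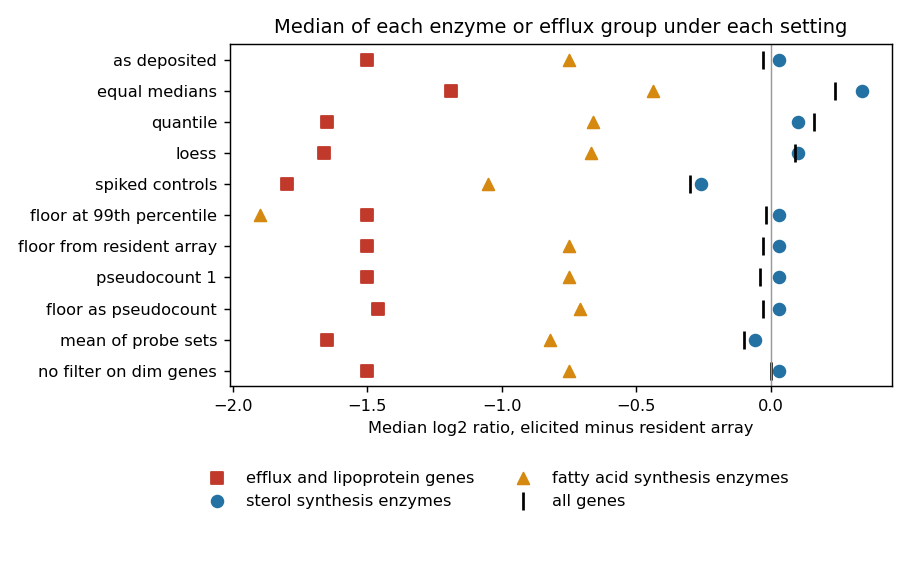
Median log2 ratio, elicited minus resident array, of the efflux and lipoprotein genes (squares), sterol synthesis enzymes (circles), fatty acid synthesis enzymes (triangles) and all genes (bars), for the deposited scale and 10 alternatives. The sterol enzymes stay near all genes, from -0.26 to 0.34, and the other groups lie to their left in every row. Equal medians and spiked controls shift the gene groups alike, so those rows could not change their order.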

How the data were processed

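The authors deposited linear signal intensities, 1 per probe set. The submitters' processing notes name MAS5 for them; its version, detection calls and scaling target are not stated in the labels. After trimming 2% at each end, the mean deposited intensity was 500.0 on both arrays. Per the labels' protocols, 100 ng of total RNA gave the biotinylated cRNA. Probe sets (45101) were named from the platform annotation, updated by gene ID to GRCm38.p6 RefSeq symbols for 34754 of 34958 with 1 gene, and 932 naming several genes were left out. The floor was the 95th percentile of 248 values of 124 probe sets of olfactory, vomeronasal, taste receptor and keratin-associated genes (82.9; 68.1 on the elicited and 93.3 on the resident array alone), and lower signals were raised to it. Probe sets above it made up 45.9% on the elicited and 51.8% on the resident array.

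With 1 array per group no test was run, and differences were described by a 2-fold threshold. For a gene with several probe sets, the brightest by mean log2 signal was used. All measured members and other pathway genes are named. Members, the list of other pathway genes and the marker lists were chosen with earlier results of these data known; the differences between group medians were added after seeing the data. Alternatives changed the scaling (equal medians, quantile, loess with a span of 0.4, spiked controls), the floor (99th percentile, 175; resident array alone), a pseudocount (1, or the floor), the probe sets (mean) and the filter on dim genes (none). The ratio step was tested on simulated data. Calculations used Python 3.11.15, numpy 2.4.6 and pandas 2.3.3.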

Additional observations from a re-analysis of the deposited data

How the results depend on the processing

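Of 367 ratios of single listed genes under the 10 alternatives, 359 moved by less than the probe-set SD of 0.48, 8 moved by more, and 0 of the 10 genes past 2-fold changed direction. Past 2-fold in all 10 alternatives were 9 of those 10; the tenth, Srebf2, had a log2 ratio of -0.97 with equal medians and also fell just short of the threshold with the mean of its probe sets. Part of the 359 could not have come out otherwise. Equal medians and spiked controls shift every measured ratio by a constant smaller than the probe-set SD. Leaving out the filter changed no listed gene, and the floor from the resident array alone changed only Elovl6. The count of listed genes at least 2-fold higher was 2 with equal medians, with quantile normalization and with a pseudocount of 1, since Elovl6 then joined Abcg1. The count at least 2-fold lower ran from 8 to 10. The median of the fatty acid enzymes was -1.90 with the floor at the 99th percentile, and its difference from the sterol enzymes -1.93, since Elovl6 and Fads2 then fell out. Both are bounds, because the median is then the value of Fasn against that floor. The other medians moved by less than the probe-set SD under the alternatives run. No paired analysis was possible because each group had 1 array. Depth in the sense of counts does not apply; signal over background limits Ch25h, Fads2, Elovl6, and Fasn and Scd1 on the elicited array. Variation between animals and cultures was not measured.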
